A study of Mus musculus with 8 samples.

Results

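The TRAV9 family is a group of related variable segments of the mouse T-cell receptor (TCR) alpha locus. Its members were taken as every clonotype whose V segment was named TRAV9, with or without the letter D or N, followed by a dash and a number. A clonotype is a distinct CDR3 nucleotide sequence with its V and J segments and its read count in 1 mouse. The rule found 1825 of 53249 alpha clonotypes and 2272 of 80000 alpha reads (2.84%), under 10 of the 116 V names in the tables. The members were thus chosen by the V name that the authors' assembly gave each read. TRAV9-1 and TRAV9N-3 had been singled out among them with earlier results of these data known, so their group values are given as a description.

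The libraries came from female C57BL/6 mice, aged 6 to 8 weeks, that carried intradermal B16F10 melanoma from 200000 injected cells. Every mouse received 300 mg/kg cyclophosphamide (CTX) on day 3, 2000000 Thy1.1 Pmel-1 cells on day 5, which are CD8+ T cells with a transgenic receptor against a gp100 peptide, and 10000 IU of IL-2 daily for 3 days. The 3 CTXpre mice had no further treatment, and the 5 CTXpre/CD4post mice also had 200 μg of the CD4-depleting antibody GK1.5 on days 10, 17 and 24. On day 25 the endogenous CD8+ T cells (en-T cells), CD8-positive and Thy1.1-negative, were sorted from inguinal lymph nodes and spleen of each mouse, and alpha and beta TCR libraries were made from 100 ng of RNA. Of the treatments listed, the groups therefore differ by the antibody alone, and no mouse was left without CTX, tumor or transferred cells.

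Each alpha library held 10000 reads after the authors' down-sampling, in 5043 to 7695 clonotypes. Reads measure TCR RNA of a sorted pool, so fewer cells and less RNA per cell cannot be told apart. Among rearrangements that mark other cells, TRAV11 joined to TRAJ18 (invariant NKT cells) had 2 to 25 reads per library. TRAV1 joined to TRAJ33 (mucosal-associated invariant T cells) had 0 to 6. The TRAV7 family, which holds the Pmel-1 alpha V segment, had 1759 to 2077 reads per library. It was the largest V family by reads, with 9151 clonotypes over all mice, so its reads do not by themselves mark transferred cells. The libraries of CTXpre/CD4post mice 1 and 2 overlapped unequally, with no background from other pairs of mice given. Of 108 sequences with 5 or more reads in CTXpre/CD4post mouse 1 that were absent from the other 6 libraries, 39 were also present in CTXpre/CD4post mouse 2, against 2 of 49 in the opposite direction. Of the TRAV9 sequences, 1 of 2 was so shared, and each group result was also computed without either mouse.

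The alpha chain of a T cell is made by joining 1 V segment to 1 J segment, with bases trimmed from both ends and others added between them. The join encodes CDR3, the loop that lies over the peptide held by an MHC molecule. When an opened hairpin end is not trimmed, a few bases complementary to the segment's own end remain, which are called palindromic nucleotides. A thymocyte can rearrange the same locus repeatedly, each round using V segments further upstream and J segments further downstream (lower TRAJ numbers), and in C57BL/6 mice blocks of V segments have been duplicated, which gives the D and N copies. TRAV9 was formerly called Vα3.

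The 10 copies found in the libraries lie on the plus strand of chromosome 14 (GRCm38, GENCODE M21) over 884 kb. TRAV9D-1 is the most distant from the J segments (chr14:52792316-52792777) and TRAV9-4 the nearest (chr14:53676141-53676630), 1365 and 481 kb upstream of TRAJ58, the first J segment used in these libraries. TRAV9N-3 lies at chr14:53231433-53232102 and TRAV9-1 at chr14:53488045-53488567. An eleventh annotated gene, Trav9n-1, is a pseudogene and no read carried its name. The stretch of each copy that enters CDR3 is the last 13 bases of its V exon, which directly precede the recombination signal. These stretches are shown because they separate groups of copies in the reads, though not every copy. The bases directly after the conserved cysteine codon, up to the serine codon that all the ends share, are in capitals. The last base, g or a, also separates groups of copies.

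TRAV9-1, TRAV9-4 and TRAV9D-1: tgtGCTGTGagcg
TRAV9D-3 and TRAV9N-3: tgtGCTGTGagca
TRAV9-2: tgtGTTTTGagcg
TRAV9D-2 and TRAV9N-2: tgtGTTCTGagcg
TRAV9D-4 and TRAV9N-4: tgtGCTCTGagca

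These ends encode Cys-Ala-Val, Cys-Val-Leu or Cys-Ala-Leu, each followed by a serine codon and the first base of the next codon. TRAV9D-3 and TRAV9N-3 had identical annotated transcripts, as had TRAV9D-2 and TRAV9N-2. TRAV9-1 and TRAV9D-1 were 99.2% identical over the 250 bases compared, and 83.2% to 84.8% identical to the other copies apart from TRAV9D-4. Of the 45 pairs of copies, 22 were over 95% identical. A copy name is therefore not always a gene, and names that share a sequence are reported as uncertain. Among 117 TRAV9 nucleotide sequences found in 2 or more mice, 45 (38.5%) carried more than 1 copy name, and 38 TRAV9 sequences also occurred under a V name of another family.

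The TRAV9 share of alpha reads overlapped between the groups. It was 2.70%, 3.53% and 2.99% in the CTXpre mice and 3.52%, 2.50%, 2.85%, 2.16% and 2.47% in the CTXpre/CD4post mice. The means were 3.07% ± 0.421 (SD, n = 3) and 2.70% ± 0.519 (SD, n = 5). CTXpre/CD4post mouse 1 was nearly as high as the highest CTXpre mouse, and the remaining 4 lay below it. The difference of -0.373 percentage points was within the spread between mice (exact two-sided Mann-Whitney test, p = 0.25, 0.583 adjusted over 7 group comparisons), and was -0.145 without CTXpre mouse 2 and -0.578 without CTXpre/CD4post mouse 1. The smallest p that 3 against 5 mice allow is 0.0357. The share of clonotypes was 3.55% ± 0.351 and 3.36% ± 0.463 (exact p = 0.786, adjusted 0.786). Within 1 library a share of 2.16% to 3.53% has a 95% Wilson interval of about 1.89% to 2.46% at the low end and 3.19% to 3.91% at the high end, which covers counting error only. TRAV9 ranked 12th among V families by reads, between TRAV10 and TRAV8.

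TRAV9N-3 and TRAV9D-3 held most reads, with 465 and 403, or 20.5% and 17.7% of the family. TRAV9-2 had 320 reads, TRAV9-1 297, TRAV9-4 293, TRAV9N-4 208, TRAV9D-2 188 and TRAV9D-1 74. TRAV9D-4 and TRAV9N-2 were nearly absent, with 20 and 4 reads. The order of the leading 2 copies is not settled, since their counts overlapped between mice and their transcripts are the same.

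TRAV9-1 had 39, 49 and 60 reads in the CTXpre mice and 35, 27, 27, 29 and 31 in the CTXpre/CD4post mice. Every CTXpre/CD4post mouse was below every CTXpre mouse. Of the 103 V segments tested, 5 (4.85%) were separated in this direction and 6 (5.83%) in either. The log2 fold change of TRAV9-1, CTXpre/CD4post over CTXpre, was -0.71 (SE 0.27), with an edgeR quasi-likelihood adjusted p of 0.610 over the 103 segments. TRAV9N-3 had 63, 94 and 65 reads against 77, 43, 43, 37 and 43. Its groups overlapped through CTXpre/CD4post mouse 1. Its log2 fold change was -0.59 (SE 0.28), adjusted p = 0.743 by edgeR, and -0.81 without that mouse.

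No V segment passed the test between groups: edgeR called 0 of 103 (0%), among them 0 of the 8 TRAV9 copies tested, and DESeq2 also called 0. At an unadjusted p below 0.05 each tool listed 6 V segments, of which edgeR's included TRAV9-1 and TRAV9N-3. TRAV9-2 and TRAV9N-4 had fitted values in the opposite direction, 0.46 (SE 0.30) and 0.42 (SE 0.35), and neither passed. TRAV9-2 had 36, 34 and 28 reads against 62, 38, 32, 31 and 59. CTXpre/CD4post mice 1 and 5 were high, the latter with 2 expanded TRAV9-2 clonotypes of 18 and 14 reads, and the groups overlapped. When copies of near-identical sequence were joined, TRAV9D-3 with TRAV9N-3 had 111, 154 and 126 reads against 121, 88, 116, 79 and 73, a log2 fold change of -0.41 with adjusted p = 0.711 by edgeR. TRAV9-1 with TRAV9D-1 had 47, 61 and 65 reads against 51, 39, 36, 37 and 35, so the groups overlapped once joined, with -0.51 and adjusted p = 0.711 by edgeR.

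**Figure D1:**
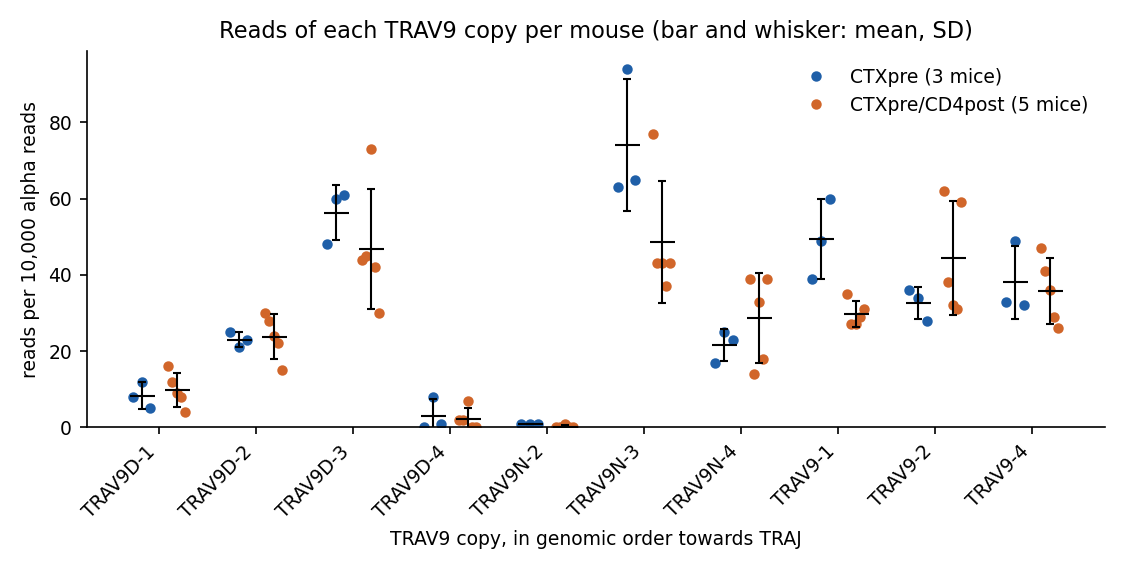
Reads per 10000 alpha reads (vertical axis) for each TRAV9 copy (horizontal axis, ordered along the chromosome towards the J segments), with 1 point per mouse and the mean and SD of each group. TRAV9-1 is the copy whose groups do not overlap, and TRAV9N-3 in CTXpre/CD4post mouse 1 lies at 77 against 37 to 43 in the other mice of that group.

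The name of a copy went with the state of its V end. A V end was counted as whole where the CDR3 began with all 13 bases of any of the printed ends, whichever copy it was named for. It was whole in 893 of 1825 TRAV9 clonotypes (48.9%), and per mouse in 40.5% to 53.3%. It was whole in 78.5% of clonotypes named TRAV9N-3 and in 16.9% of those named TRAV9D-3, although both share 1 germline end, and in 68.02% of those named TRAV9D-2 and 36.4% of those named TRAV9-2. The capitals of the printed ends also crossed names, since 94 of 172 TRAV9D-2 clonotypes carried GTTTTG, the bases of TRAV9-2, and 62 carried the GTTCTG of TRAV9D-2 itself. A read of this sequence thus carried the name TRAV9D-3 mostly where its end was trimmed and TRAV9N-3 mostly where it was whole.

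Bases of the palindromic sequence were frequent at the V end, counted by a match of sequence whatever their source. In some joins they also matched the J segment, as in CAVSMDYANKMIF with TRAJ47, which had no unmatched base. How many were added as palindromic bases was not measured. In 502 clonotypes (27.5% of the family, 56.2% of those with a whole V end) the whole V end, again of any copy, was followed by the dinucleotide complementary to its last bases, in capitals here.

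TRAV9D-3 and TRAV9N-3 with palindromic bases: tgtgctgtgagcaTG
TRAV9D-4 and TRAV9N-4 with palindromic bases: tgtgctctgagcaTG
TRAV9-1, TRAV9-4 and TRAV9D-1 with palindromic bases: tgtgctgtgagcgCG
TRAV9-2 with palindromic bases: tgtgttttgagcgCG

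In 231 clonotypes this completed an ATG codon, methionine, and in 271 a GCG codon, alanine. CDR3 opened with CAVSA in 215 clonotypes, 169 of them with palindromic bases, and with CVLSA in 125, 102 of them so. CAVSM opened 189, of which 187 had these bases, and CALSM 44, all with them. ATG is the only codon for methionine, so a whole V end before methionine matches by definition, whatever the source of the bases. CAVSM was carried by 165 clonotypes named TRAV9N-3. The share of clonotypes with palindromic bases lay between 23.8% and 30.8% in the 8 mice, with both ends of the range in CTXpre mice, so the groups overlapped.

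**Figure D2:**
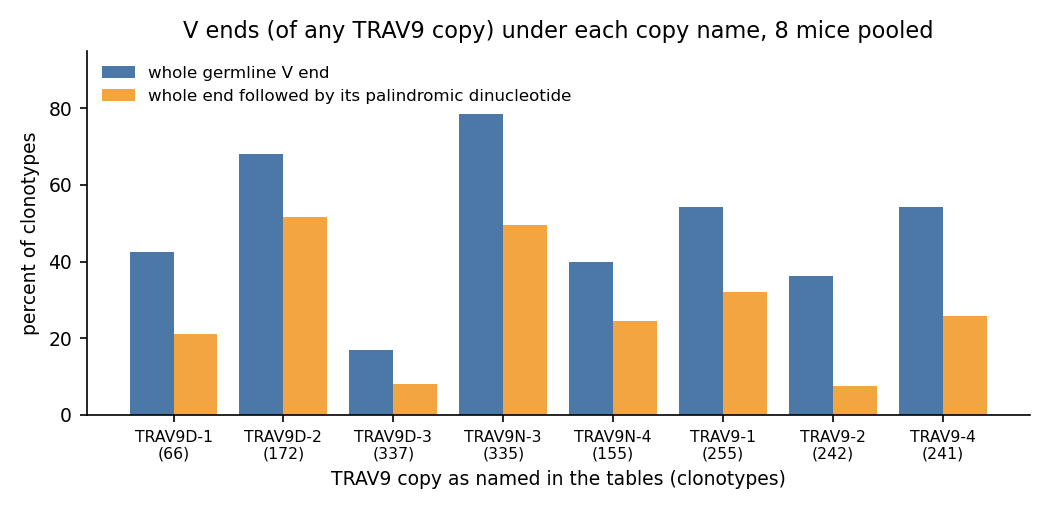
Percent of clonotypes (vertical axis) with a whole germline V end, and with that end followed by its palindromic dinucleotide, for the 8 TRAV9 names with 50 or more clonotypes (horizontal axis, clonotype number in parentheses), 8 mice pooled, counting the end of any TRAV9 copy. TRAV9N-3 and TRAV9D-3, which share 1 germline end, stand at 78.5% and 16.9%.

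TRAV9 joined J segments further downstream than the other V segments did. The mean TRAJ number of TRAV9 clonotypes was 28.6, 26.5 and 26.2 in the CTXpre mice and 29.3, 28.0, 27.0, 29.4 and 29.8 in the CTXpre/CD4post mice. The other V segments had means of 29.4 to 31.5. TRAV9 was lower in 8 of 8 mice, with a difference of -2.60 ± 0.921 (SD, n = 8 mice; exact two-sided sign-flip test, p = 0.00781, the smallest 8 mice allow, and 0.0312 adjusted over 4 within-mouse comparisons). The difference was -2.37 when clonotypes found in 2 or more mice were left out, again with p = 0.00781 by the exact test, and leaving out any 1 mouse gave -2.76 to -2.40. Between groups the TRAV9 mean was 27.1 ± 1.32 (SD, n = 3) and 28.7 ± 1.17 (SD, n = 5), a difference of 1.60. The groups overlapped, and the difference did not pass (exact Mann-Whitney p = 0.143, adjusted 0.583). Among the 16 V families with 50 or more reads in every mouse TRAV9 ranked 4th from the lowest, after TRAV8, TRAV12 and TRAV7.

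Of 43 TRAJ segments tested between TRAV9 and the other V segments of the same mice, edgeR called 4 (9.3%). Higher in TRAV9 were TRAJ9 (chr14:54209393-54209450), TRAJ7 (chr14:54211470-54211528) and TRAJ4 (chr14:54216291-54216353), all near the downstream end of the J cluster. Lower was TRAJ52 (chr14:54165316-54165381), near its upstream end. TRAJ9 made up 4.14% ± 1.03 of TRAV9 clonotypes and 2.83% ± 0.325 of the others (SD, n = 8 mice) and was higher in TRAV9 in 8 of 8 mice, with a log2 fold change of 0.64 (SE 0.17, edgeR adjusted p = 0.0272). TRAJ52 made up 0.652% ± 0.488 against 1.62% ± 0.244 and was lower in 8 of 8 mice, at -1.18 (SE 0.37, edgeR adjusted p = 0.0380), from 12 TRAV9 clonotypes in all. TRAJ7 was higher in 6 of 8 mice (0.69, SE 0.21, edgeR adjusted p = 0.0349) and TRAJ4 in 5 of 8 (0.74, SE 0.24, edgeR adjusted p = 0.0463).

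These calls changed with the scaling and with single mice. The median log2 fold change over the 43 segments was 0.14 with TMM scaling, 0.04 with library size alone and -0.07 with DESeq2. The printed values thus shift with the scaling, and the median was not subtracted from them. Library size alone called 2 higher and 4 lower, DESeq2 called 0 (10 at an unadjusted p below 0.05), and edgeR called 0 without CTXpre mouse 1, 0 without CTXpre mouse 3 and 1 without CTXpre/CD4post mouse 1. By position, the fitted value exceeded the median in 11 of 13 segments from TRAJ2 to TRAJ20, in 9 of 17 from TRAJ21 to TRAJ40 and in 1 of 13 from TRAJ41 upward, a grouping chosen after the values were seen and given without a test.

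**Figure D3:**
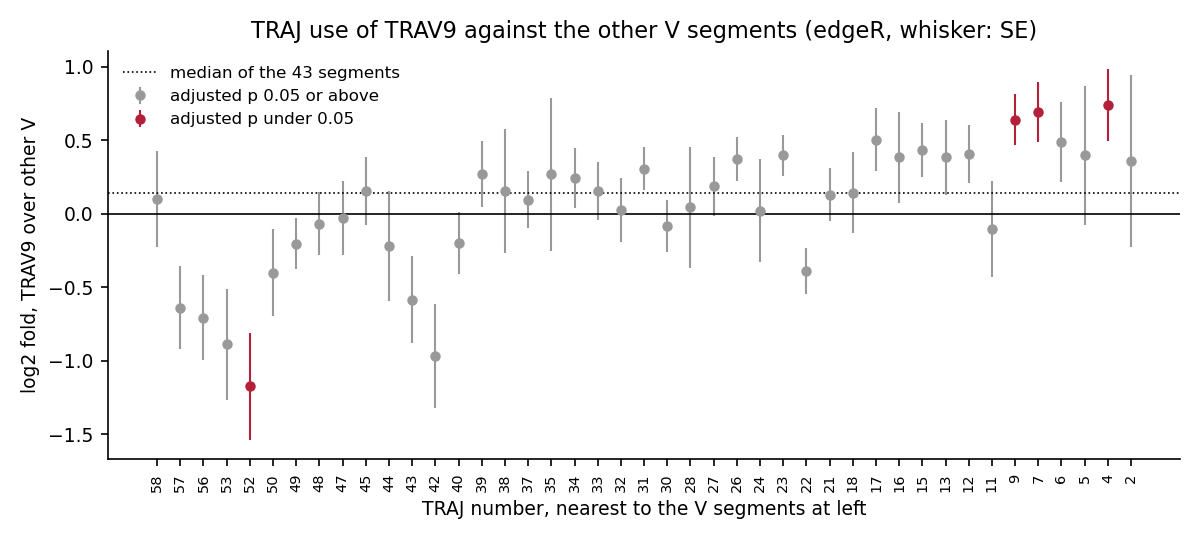
Log2 fold change of clonotypes, TRAV9 over the other V segments (vertical axis, edgeR, whiskers SE), for 43 TRAJ segments ordered along the chromosome with those nearest the V segments at left (horizontal axis). Red points mark the 4 segments with an adjusted p below 0.05, and the dotted line is the median, 0.14; values run from -1.18 at TRAJ52 to 0.74 at TRAJ4.

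The copies differed in their J partners. Clonotypes named TRAV9-4, the copy nearest the J cluster, had a mean TRAJ number of 37.0 ± 2.48 (SD, n = 8 mice), from 33.9 to 40.6. TRAV9-2 followed at 32.3 ± 1.79 and TRAV9-1 at 28.9 ± 0.907. The more distant TRAV9D-3 lay at 22.9 ± 2.07, from 19.98 to 25.9, so that no mouse's TRAV9D-3 value reached any mouse's TRAV9-4 value. TRAV9N-3 had 24.7 ± 2.40 and TRAV9N-4 25.9 ± 4.11. TRAV9D-2 and TRAV9D-1, further upstream still, had 28.8 ± 3.32 and 28.1 ± 5.58, so the order did not follow distance throughout. In order of level, each mean from TRAV9-1 down to TRAV9D-3 lay within 1 SD of the next. Over the 8 copies with 50 or more clonotypes, Pearson's r between distance to TRAJ58 and mean TRAJ number was -0.669 and Spearman's rho -0.643, given as a description, since all copies come from the same 8 mice and some names share a sequence.

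**Figure D4:**
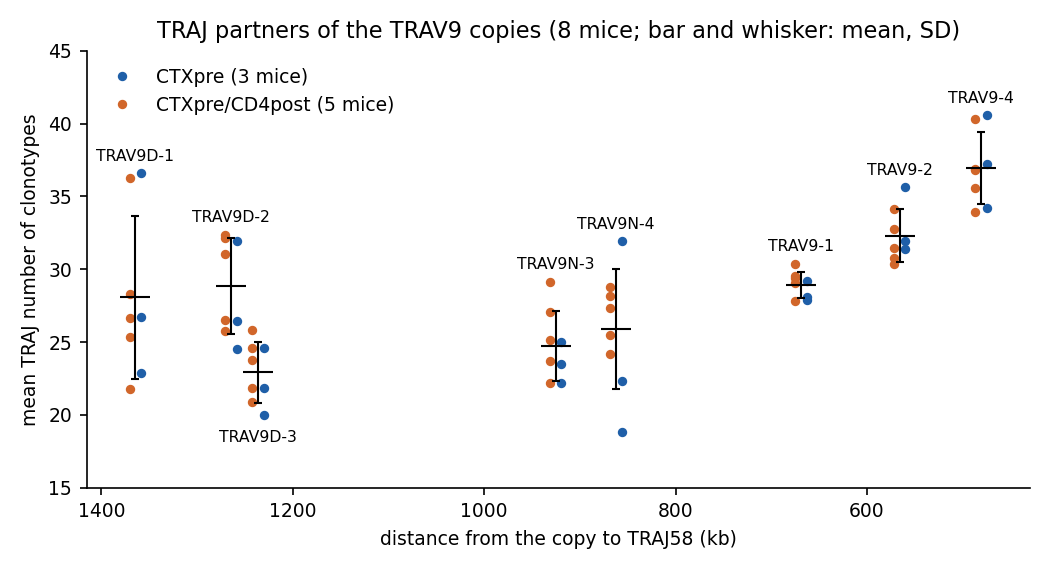
Mean TRAJ number of clonotypes (vertical axis, from 15 to 45) against distance from the copy to TRAJ58 in kb (horizontal axis, nearest at right), with 1 point per mouse and the mean and SD over 8 mice. TRAV9-4 at 33.9 to 40.6 lies above TRAV9D-3 at 19.98 to 25.9 in every mouse.

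No TRAV9 and TRAJ pair passed the test between groups. Of 338 pairs of V family and TRAJ tested, 16 of them with TRAV9, edgeR called 0 (0%) and DESeq2 called 0, with 16 and 17 pairs at an unadjusted p below 0.05. The TRAV9 pair with the smallest p was TRAV9 with TRAJ12, which had 6, 35 and 19 reads in the CTXpre mice and 9, 5, 16, 5 and 6 in the CTXpre/CD4post mice. The groups overlapped, and 19 of the 35 reads in CTXpre mouse 2 were 1 clonotype. The log2 fold change was -1.18 (SE 0.52), with an unadjusted p of 0.0387 and an edgeR adjusted p of 0.856.

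CDR3 of TRAV9 was 7 to 18 residues long with a median of 14. Its mean differed from that of the other V segments by -0.0283 ± 0.124 residues (SD, n = 8 mice), lower in 6 of 8 (exact sign-flip p = 0.539). The distribution was narrower, with 91.5% of TRAV9 clonotypes at 12 to 15 residues against 83.9% of the others. At 16 residues the shares were 3.81% ± 1.87 and 7.37% ± 0.275 (SD, n = 8 mice). Other families also had high shares at 12 to 15 residues, such as TRAV14 with 90.8% and TRAV4 with 90.5%, and TRAV16 had 69.6%. Mean TRAV9 length was 13.7 ± 0.164 in CTXpre and 13.6 ± 0.0816 in CTXpre/CD4post mice, a difference of -0.107 residues (exact Mann-Whitney p = 0.393, adjusted 0.667).

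**Figure D5:**
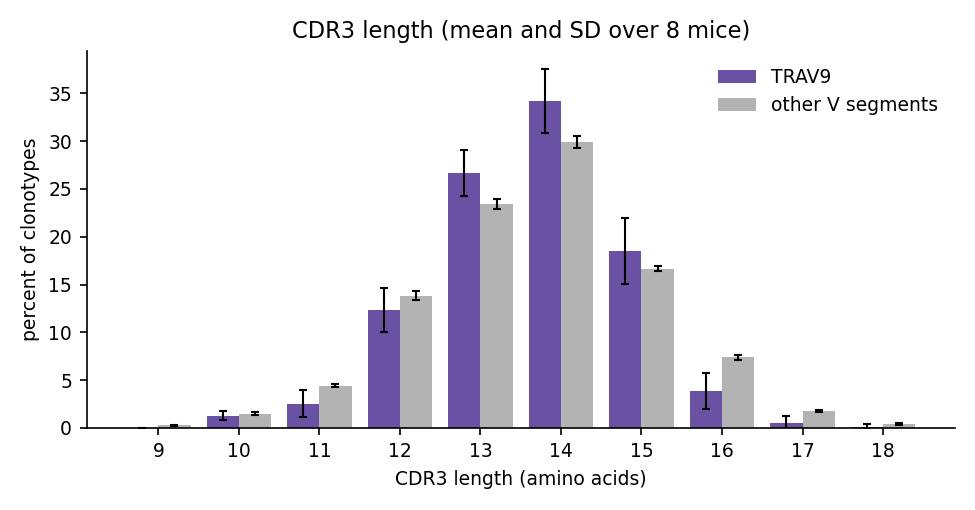
Percent of clonotypes (vertical axis) by CDR3 length in amino acids (horizontal axis) for TRAV9 and for the other V segments, as mean and SD over 8 mice. TRAV9 exceeds the others at 13, 14 and 15 residues and lies below them at the other lengths shown.

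Bases that matched neither germline segment, palindromic ones included, numbered 3.04 ± 0.129 per TRAV9 clonotype (SD, n = 8 mice). They differed from those of the other V segments by -0.0462 ± 0.134 (exact sign-flip p = 0.367, lower in 6 of 8 mice). The deposited V ends gave the opposite direction over all clonotypes, 0.971 more bases in TRAV9, and in them every TRAV9-2 and TRAV9N-2 clonotype had its V end listed at position 2. Between groups the means were 3.11 ± 0.173 and 3.00 ± 0.0955 (exact Mann-Whitney p = 0.25, adjusted 0.583).

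Expanded TRAV9 clonotypes were few. With 10 or more reads counted as expanded, the CTXpre mice had 0, 1 and 0 and the CTXpre/CD4post mice 2, 0, 1, 0 and 3. These held 0% to 5.38% of TRAV9 reads in CTXpre and 0% to 17.0% in CTXpre/CD4post mice, means of 1.79% ± 3.11 and 5.61% ± 7.003 (difference 3.81 percentage points, exact Mann-Whitney p = 0.5, adjusted 0.667). Without CTXpre/CD4post mouse 5 the difference was 0.963 percentage points, and without CTXpre mouse 2 it was 5.61. The other V segments had 11 to 15 expanded clonotypes in each CTXpre mouse and 21 to 99 in each CTXpre/CD4post mouse. The expanded share of TRAV9 clonotypes differed from that of the others by -0.218 ± 0.373 percentage points, lower in 6 of 8 mice (exact sign-flip p = 0.102, adjusted 0.203). With 5 reads as the minimum it was lower in every mouse, 0.761% ± 0.858 against 2.34% ± 1.502 (exact sign-flip p = 0.00781).

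The 7 expanded clonotypes are printed with the bases that match neither segment in capitals. They are the part of each join that neither germline end accounts for, and an added base that matches an end is not marked.

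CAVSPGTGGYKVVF, TRAV9N-3 with TRAJ12: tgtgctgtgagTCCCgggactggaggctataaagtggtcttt
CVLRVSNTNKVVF, TRAV9-2 with TRAJ34: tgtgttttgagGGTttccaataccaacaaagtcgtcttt
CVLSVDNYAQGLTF, TRAV9-2 with TRAJ26: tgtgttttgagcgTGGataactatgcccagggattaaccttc
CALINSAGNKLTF, TRAV9N-4 with TRAJ17: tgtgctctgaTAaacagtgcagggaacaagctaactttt
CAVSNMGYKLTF, TRAV9D-3 with TRAJ9: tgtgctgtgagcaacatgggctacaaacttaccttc
The TRAV9N-3 with TRAJ15 clonotype opening with CAVSM: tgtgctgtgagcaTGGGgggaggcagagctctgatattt
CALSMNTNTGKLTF, TRAV9N-4 with TRAJ27: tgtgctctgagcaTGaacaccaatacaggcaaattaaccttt

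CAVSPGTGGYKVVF had 19 reads in CTXpre mouse 2, where it ranked 3rd among all alpha clonotypes, a share of 0.19% (95% Wilson interval 0.122% to 0.297%). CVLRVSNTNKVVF, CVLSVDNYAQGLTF and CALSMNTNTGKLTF had 18, 14 and 10 reads in CTXpre/CD4post mouse 5, where they ranked 49th, 64th and 93rd. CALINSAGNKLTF and the TRAV9N-3 with TRAJ15 clonotype had 13 and 11 reads in CTXpre/CD4post mouse 1, and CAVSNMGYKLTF had 12 in mouse 3 of that group. Each was expanded in 1 mouse, and no TRAV9 clonotype had 10 or more reads in 2 mice. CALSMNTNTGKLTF had no unmatched bases other than a TG of the palindromic sequence, and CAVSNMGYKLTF had no unmatched base. The most abundant TRAV9 clonotype of the remaining mice had 6 reads in CTXpre mouse 1 (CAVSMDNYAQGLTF), 5 in CTXpre mouse 3 (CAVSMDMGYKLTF), 4 in CTXpre/CD4post mouse 2 (a TRAV9N-3 clonotype with TRAJ52 and no unmatched base) and 3 in mouse 4 of that group, where 3 clonotypes tied.

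Clonotypes of 1 read made up 84.8% ± 5.84 of TRAV9 clonotypes and 74.5% ± 5.25 of the others (SD, n = 8 mice), higher in TRAV9 in 8 of 8 mice. TRAV9 had 1.25 ± 0.143 reads per clonotype and the others 1.54 ± 0.236. Of the 16 V families with most reads, TRAV9 had the highest mean share of clonotypes of 1 read, followed by TRAV13 with 82.5%. Reads per TRAV9 clonotype were 1.19 ± 0.0386 in CTXpre and 1.29 ± 0.173 in CTXpre/CD4post mice (exact Mann-Whitney p = 0.571, adjusted 0.667).

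Shared clonotypes were counted by amino acid sequence, V family and TRAJ. Of 1561 such TRAV9 clonotypes 172 (11.02%) were found in 2 or more mice, against 18.7% of 36240 in the other V segments. No TRAV9 clonotype was found in more than 6 mice, whereas 71 of the others were in all 8. Within a mouse, 19.8% to 27.8% of TRAV9 clonotypes were shared with another mouse, against 40.5% to 43.5% of the others. The mean share within a mouse was 23.2% in TRAV9, and among the families nearest in reads 31.6% in TRAV4, 27.8% in TRAV10 and 37.8% in TRAV8. TRAV13 had 24.0% and TRAV15 14.9%, so a low share was not particular to TRAV9. A family's size and its number of J partners both enter this share, and their part in the result was not tested.

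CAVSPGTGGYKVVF with TRAJ12 and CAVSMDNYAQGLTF with TRAJ26 were the TRAV9 clonotypes found in 6 mice, 3 of each group. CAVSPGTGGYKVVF had 1, 19 and 3 reads in the CTXpre mice and 1, 0, 1, 2 and 0 in the CTXpre/CD4post mice. It was made by 2 nucleotide sequences, the one printed above and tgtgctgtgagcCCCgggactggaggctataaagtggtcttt. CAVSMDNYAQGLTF had 6, 2 and 2 reads against 2, 0, 0, 1 and 3, all from 1 sequence, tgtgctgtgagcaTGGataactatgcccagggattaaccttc, which holds the palindromic TG and 1 further base. Of the 13 TRAV9 clonotypes in 4 or more mice, 5 began with CAVSM and 3 had a form with no unmatched base.

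Shared TRAV9 clonotypes had fewer unmatched bases than those of 1 mouse, 1.96 against 3.36, and 89 of the 172 (51.7%) were made by more than 1 nucleotide sequence. Of the 172, 108 were found in both groups, 46 in CTXpre/CD4post mice alone and 18 in CTXpre mice alone, with 5 and 3 mice to draw from. CTXpre/CD4post mice 1 and 2 shared 11 TRAV9 nucleotide sequences, where the other pairs of mice, of either group, shared 2 to 15. The 11 were the most of any pair within that group, followed by 10 in mice 1 and 3. They were also the most of any pair with mouse 2, followed by 8 with CTXpre mouse 1.

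Of the 15 other V families with 50 or more reads in every mouse, TRAV5 was most like TRAV9 in read level over the 8 mice (Pearson's r = 0.747), followed by TRAV12 (0.618) and TRAV8 (0.396). In the profile of 43 TRAJ segments the order was TRAV7 (0.937), TRAV3 (0.896) and TRAV12 (0.894). Both are descriptions, since reads of all families sum to 10000 in each library and the profiles come from the same mice.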

How the data were processed

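The alpha clonotype tables of 8 mice were used and the 8 beta tables were not. Per the study's methods and labels, libraries were made by nested PCR with no molecular identifiers named, sequenced at 300 bases per end, trimmed with Scythe and Sickle (reads under 36 bases removed), assembled with MiXCR (version not given in the sources used here) and handled with VDJtools. The submitters' processing notes name bcl2fastq and mm10. The authors deposited read counts per clonotype, down-sampled to 10000 per library, and the same values as a fraction of the library. Deposited V end and J start positions were used as an alternative. PCR reads are not independent molecules.

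Bases were matched to germline ends of the same V family and the named J segment (GENCODE M21 on GRCm38, samtools 1.23.1); all 116 V names and 43 of 44 J names were matched to the annotation. Group values were tested with exact two-sided Mann-Whitney tests and differences within mice with exact sign-flip tests, in Python 3.11.15 with scipy 1.17.1. Counts of V segments, pairs and TRAJ segments were tested with edgeR 4.0.16 (quasi-likelihood, TMM, 10 or more counts in 3 or more columns, Benjamini-Hochberg, 0.05), with DESeq2 1.42.0 as an alternative. The TRAJ test set clonotypes of TRAV9 against those of the other V segments with mouse as a covariate. Scripts were tested on simulated data. Named were TRAV9-1, TRAV9N-3, copies with 1% or more of TRAV9 reads, expanded clonotypes and those in most mice, called TRAJ segments and the 3 most alike families; the TRAV9-TRAJ12 pair, the clonotype-sharing examples below 8 mice and copies under 1% were named after their values were seen. The members and lists were chosen with earlier results of these data known. Replicate numbers did not pair the mice (correlations of deviations -0.0995, 0.0392 and -0.0578 over 103 V segments).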

Additional observations from a re-analysis of the deposited data

Results flagged for a closer look

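Among 21 values examined in the 5 CTXpre/CD4post mice, 3 had 1 mouse further from the others than Dixon's 95% limit of 0.71 allows, and chance alone flags about 1 in 20. TRAV9N-3 had 77 reads in mouse 1, against 37 to 43 in the others. TRAV9D-4 had 7 reads in mouse 3, with 2 in the next highest, and TRAV9N-2 had 1 read in mouse 3 and 0 in the others. The TRAV9N-2 value lies under the limit that a count of 0 allows, 3 reads of 10000 (0.03%).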

How the results depend on the processing

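In this section a difference passes where its exact p is below 0.05 without adjustment over the set of comparisons. Of the differences set for testing, the lower TRAJ number of TRAV9 within mice kept its direction and passed under every alternative run for it. Its exact sign-flip p was 0.0156 in each run without 1 mouse and 0.00781 in the other alternatives, none of them adjusted. The number of TRAJ segments called, 4, was 0 with DESeq2, 0 with reads in place of clonotypes, 0 without clonotypes found in 2 or more mice and 0 to 6 without 1 mouse, and the cause was not tested. The pairs called, 0, became 1 with no filter on low counts, and that pair was not a TRAV9 pair. The group difference in the TRAV9 share of clonotypes, -0.187 percentage points, turned to 0.116 without clonotypes of 1 read, and leaving out 1 mouse gave -0.360 to 0.00550, the highest without CTXpre mouse 2. Unmatched bases in TRAV9 minus the others turned to 0.110 without clonotypes of 1 read, to 0.0957 weighted by reads and to 0.971 with deposited positions, an alternative added after seeing the data. Without clonotypes found in 2 or more mice the value was -0.517 (exact sign-flip p = 0.00781), from -0.681 to -0.109 over the 8 mice. This removal takes 19.8% to 27.8% of TRAV9 clonotypes per mouse and 40.5% to 43.5% of the others. Shared TRAV9 clonotypes had fewer unmatched bases, and how far the removal sets this value was not tested. With all clonotypes the difference lay at -0.0856 to -0.0271 without 1 mouse, passing without CTXpre mouse 1 (exact p = 0.0312). The group difference in unmatched bases turned to 0.303 with deposited positions. Without CTXpre mouse 1 it was -0.00413, that in length -0.0123 and that in TRAJ number 2.36. The expanded share passed at -1.58 percentage points with 5 reads as the minimum, and lay at -0.275 to -0.0994 without 1 mouse, passing without CTXpre mouse 2 (exact p = 0.0469).

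With the replicate number as a block over mice 1 to 3, the TRAV9 read share differed by -0.117 percentage points, the clonotype share by -0.0480, TRAJ number by 1.01 and length by -0.109, and no call changed; 3 pairs cannot give a p below 0.25. Leaving out a mouse leaves 2 against 5 or 3 against 4, with smallest exact p of 0.0952 and 0.0571, so those group tests could not pass. With 165 to 298 TRAV9 clonotypes per mouse, a copy or J segment under 1% of the family rests on a few reads.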

Other observations

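The J partners of single copies were as follows. TRAV9-4 was joined most often to TRAJ45 (19 of 241 clonotypes), TRAJ49 (18) and TRAJ40 (16), and 40.2% of its clonotypes used TRAJ41 or a higher number. TRAV9D-3 led with TRAJ15 (25 of 337), TRAJ23 (23) and TRAJ9 (21), and TRAV9N-3 with TRAJ9 (28 of 335), TRAJ15 (22) and TRAJ26 (19). Of these 2 names, 47.2% and 46.3% of clonotypes used TRAJ2 to TRAJ20, against 9.54% of TRAV9-4 and 20.4% of TRAV9-1, all pooled over 8 mice. TRAV9-1 was joined most often to TRAJ31 (20 of 255) and TRAV9-2 to TRAJ30 (18 of 242). These are descriptions without a test.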
